A study of Homo sapiens with 18 samples.

Results

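The S100 calcium-binding family was described in A549 cells, a human lung adenocarcinoma line, with and without sodium propionate (SP), the salt of a short-chain fatty acid. Its members were taken as the rows of the deposited count tables whose Ensembl identifier carries the symbol S100A2, S100A3, S100A4, S100A6, S100A9, S100A10, S100A11, S100A14, S100A16 or S100P in the GENCODE annotation of GRCh38. All 10 were found among the 61541 genes of each of the 2 tables. RNA had been sequenced from wild-type A549 cells kept in high-glucose DMEM with fetal bovine serum, and every SP group had received 5 mM SP. One table covers long exposure, with untreated cells at day 3 (Control 3 days) beside cells given SP for 3 days (SP 3 days) or 12 days (SP 12 days). The second covers short exposure, with untreated cells at 24 h (Control 24 h) beside cells given SP for 3 h (SP 3 h) or 24 h (SP 24 h). Each group has 3 libraries, which makes 18 in all. The question addressed here was how each member of the family differed from the untreated control after short and prolonged exposure to SP. No control of 12 days or of 3 h is among the libraries, so in SP 12 days the time in culture cannot be told apart from SP, and SP 3 h was set against the 24 h control. A549 is a single cell line. The study calls the libraries of the short exposure biological replicates, and for the long exposure no source used here says whether they came from separate cultures, so p-values there measure a spread between libraries that may be technical.

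S100 proteins are small EF-hand proteins that mostly work as dimers. Binding of calcium exposes a hydrophobic surface through which they grip target proteins such as annexins, cytoskeletal motors and scaffolds. S100A10 is the exception that has lost calcium binding and sits in a stable complex with annexin A2 at the plasma membrane. Several members are also released from cells and bind surface receptors, of which RAGE (AGER) is the best known. In lung adenocarcinoma and other carcinomas, S100A4 and S100P are known for their association with motility and spread, and S100A9 is chiefly a protein of neutrophils and monocytes.

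In GRCh38, 9 of the 10 genes lie on chromosome 1 in the region of the epidermal differentiation complex. S100A10 (ENSG00000197747) spans positions 151982915 to 151993859 on the minus strand, and the start of S100A11 lies 38646 bp beyond its end. The other 7 follow after a gap, from S100A9 (153357854 to 153361023, plus strand) through S100A6, S100A4, S100A3, S100A2 and S100A16 to S100A14 (153614255 to 153616986, minus strand). S100A16 (153606886 to 153613145) ends 1109 bp before S100A14, and the 1930 bp span of S100A3 lies wholly inside that of S100A4 without a shared exon. S100P (ENSG00000163993) stands apart on chromosome 4, from 6693878 to 6697170 on the plus strand, with 2 exons. Among the members, S100A6 alone shares exonic bases with another gene, 37 bp with the antisense long non-coding RNA ENSG00000238279, and S100A11 has 8 annotated pseudogenes, so part of their reads could be shared with those loci.

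RefSeq start-site windows (GRCh38.p14) matched all 10 members, with 12 windows in all since S100A2 and S100A16 have 2 each. The 250 bases before the start are shown for S100P, whose direction differed between the early and late comparisons, for the first of the S100A16 windows, a gene that was lower at 24 h and 3 days, and for S100A10 and S100A4, which were both higher at 12 days. None of these windows holds an annotated exon base, and that of S100A14 is not shown because 30 of its bases are exonic. Capitals mark every match, on either strand, to 1 of the 6 motifs whose letters are spelled out after the sequences.
S100P, chr4:6693628-6693877, plus strand: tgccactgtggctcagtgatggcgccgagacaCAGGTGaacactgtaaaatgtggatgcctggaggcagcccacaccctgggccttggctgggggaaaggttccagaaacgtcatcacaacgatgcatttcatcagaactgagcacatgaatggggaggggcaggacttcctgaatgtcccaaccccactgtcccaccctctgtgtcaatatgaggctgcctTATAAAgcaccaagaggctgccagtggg
S100A16, chr1:153609356-153609605, minus strand: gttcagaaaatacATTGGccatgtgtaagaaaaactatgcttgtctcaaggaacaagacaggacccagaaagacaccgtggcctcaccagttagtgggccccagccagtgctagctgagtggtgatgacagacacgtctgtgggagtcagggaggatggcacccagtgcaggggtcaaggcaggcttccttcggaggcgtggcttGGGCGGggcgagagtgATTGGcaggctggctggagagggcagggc
S100A10, chr1:151993860-151994109, minus strand: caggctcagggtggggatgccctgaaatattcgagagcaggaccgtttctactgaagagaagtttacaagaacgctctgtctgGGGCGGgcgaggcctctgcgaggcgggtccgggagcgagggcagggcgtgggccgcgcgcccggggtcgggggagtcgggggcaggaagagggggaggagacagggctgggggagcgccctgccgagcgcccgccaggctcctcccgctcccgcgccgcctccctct
S100A4, chr1:153545807-153546056, minus strand: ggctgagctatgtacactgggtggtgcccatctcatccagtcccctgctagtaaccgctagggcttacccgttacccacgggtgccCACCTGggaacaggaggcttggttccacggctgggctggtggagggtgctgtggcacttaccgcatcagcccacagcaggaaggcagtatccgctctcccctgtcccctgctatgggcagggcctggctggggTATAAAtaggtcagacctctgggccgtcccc
A TATA box (TATAAA) was present in the windows of 3 of the 10 members (S100A4, S100A9 and S100P), at 28 bases before the start in S100P and 31 in S100A4, and in 10.7% of all 35116 windows of this length. The GC box (GGGCGG) was present in 6 members, S100A10 and S100A16 among them, and in 42.6% of all windows. An E2 box (CACCTG) was found in 6 members, S100A4 and S100P among them, and in 17.5% of all windows, and that of S100A16 lies in its second window, which is not shown because 8 of its bases are exonic. The AP-1 site (TGANTCA) occurred in S100A2 and S100A3, and in 6.57% of windows. The CCAAT box was found in S100A3 and S100A16, and in 32.0% of windows, its name spelling its letters. No member's window held the CRE (TGACGTCA), which 1.65% of all windows hold. Matches may overlap one another, a window counts once per motif, and a member counts where either of its windows holds the motif. The S100A10 window carries 24 CG dinucleotides and a GC content of 71.2%, against 4 and 55.6% in S100P, 6 and 58.0% in S100A16 and 7 and 62.8% in S100A4, and the median over all windows is 11 CG dinucleotides.

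Depth ranged from 15425281 to 21992046 counted reads per library in the table of 3 and 12 days and from 14187401 to 43765330 in that of 3 and 24 h. Levels are given as CPM (read counts relative to the TMM-scaled library size), with the mean ± SD of n = 3 libraries, and each table was scaled separately. One library stood apart for the family: SP 12 days replicate 3 was the lowest of its group for 7 of 9 members and the highest for S100P and S100A14, so results of that group are also given without it. The 5 epithelial markers (KRT8, KRT18, KRT19, EPCAM and CDH1) were all detected. Their summed level was 5999 to 7731 CPM in Control 3 days, 11670 to 12545 in SP 3 days, 11013 to 15351 in SP 12 days, 6850 to 8374 in Control 24 h, 6674 to 8457 in SP 3 h and 12285 to 13856 in SP 24 h. Of 9 leukocyte markers, 2 were abundant enough to be tested in either table. The summed level of the 9 was 19.2 to 21.2 CPM in Control 3 days, 37.0 to 41.1 in SP 3 days and 15.7 to 30.1 in SP 12 days. It was 5.72 to 8.38 in Control 24 h, 6.36 to 8.18 in SP 3 h and 19.6 to 22.2 in SP 24 h. Nearly all of it was CD14 and ITGAM. CD14 had 217 summed reads in Control 24 h, 229 in SP 3 h and 1544 in SP 24 h. In the other table CD14 had 919 in Control 3 days, 1785 in SP 3 days and 1085 in SP 12 days. PTPRC and TYROBP had 3 reads or fewer in each group of 3 libraries. Fibroblast markers (5 genes) summed to 14.2 to 15.3 CPM in Control 3 days, 58.7 to 69.8 in SP 3 days and 30.1 to 55.8 in SP 12 days. They summed to 5.93 to 22.1 in Control 24 h, 18.2 to 38.2 in SP 3 h and 62.0 to 89.9 in SP 24 h. Nearly all of it was COL1A1, with COL1A2 at 1 read or fewer per group. COL3A1 had 30 summed reads in Control 24 h and 53 in SP 24 h, and PDGFRB had 3 and 55. These reads are not scaled for depth. On the CPM scale COL3A1 overlapped, at 0.265 to 0.596 in Control 24 h and 0.283 to 0.694 in SP 24 h. PDGFRB was at most 0.0701 CPM in Control 24 h and 0.405 to 0.688 in SP 24 h. In Control 3 days and SP 3 days COL3A1 had 73 and 124 reads, and PDGFRB 10 and 21. Endothelial markers (3 genes) stayed at or under 2.88 CPM in sum. The part of these markers in the differences below was not tested.

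Members differed widely in level. Per kilobase of exon, S100A6 was the most abundant in all 6 groups, at 612 ± 82.1 CPM per kb in Control 3 days and 782 ± 204 in Control 24 h. In Control 3 days the order ran from S100A6 through S100A4 (409 ± 45.1 CPM per kb), S100A11 (309 ± 43.1), S100A10 (244 ± 20.5), S100A16 (86.2 ± 9.67), S100P (47.9 ± 4.17), S100A3 (15.5 ± 2.86) and S100A2 (2.1 ± 0.456) to S100A14 (0.176 ± 0.0480) and S100A9, and the libraries of no neighbouring pair overlapped. In Control 24 h S100A10 stood above S100A11, S100A3 (49.5 ± 7.77 CPM per kb) stood above S100P (6.63 ± 2.02), and the ranges of S100A4 and S100A10, of S100P and S100A2, and of S100A14 and S100A9 overlapped. In SP 12 days the ranges of S100A6 and S100A4, of S100A10 and S100A11, and of S100A3 and S100P overlapped. S100P and S100A3 thus stood at different levels in the controls of the 2 tables, a contrast in which time, table and scaling cannot be told apart.

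The 5 most abundant members (S100A6, S100A4, S100A10, S100A11 and S100A16) supplied nearly all of the family's reads, and the other 5 supplied 1.57% to 2.85% in each library. The members summed to 1614 ± 177 CPM in Control 3 days, 1603 ± 54.2 in SP 3 days and 1929 ± 309 in SP 12 days. In the other table the sums were 2345 ± 339 CPM in Control 24 h, 2137 ± 87.6 in SP 3 h and 1934 ± 156 in SP 24 h, and every SP 24 h library lay under every Control 24 h library. The mixture also differed between groups. The share of S100A10 was 15.3% ± 1.34 in Control 3 days, 21.4% ± 1.31 in SP 3 days and 19.7% ± 0.249 in SP 12 days, and the share of S100A16 was 13.2% ± 1.10 in Control 24 h and 9.54% ± 0.530 in SP 24 h. As these are bulk samples, fewer cells that express a gene and less RNA per cell cannot be told apart, here or in any result that follows.

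**Figure D1:**
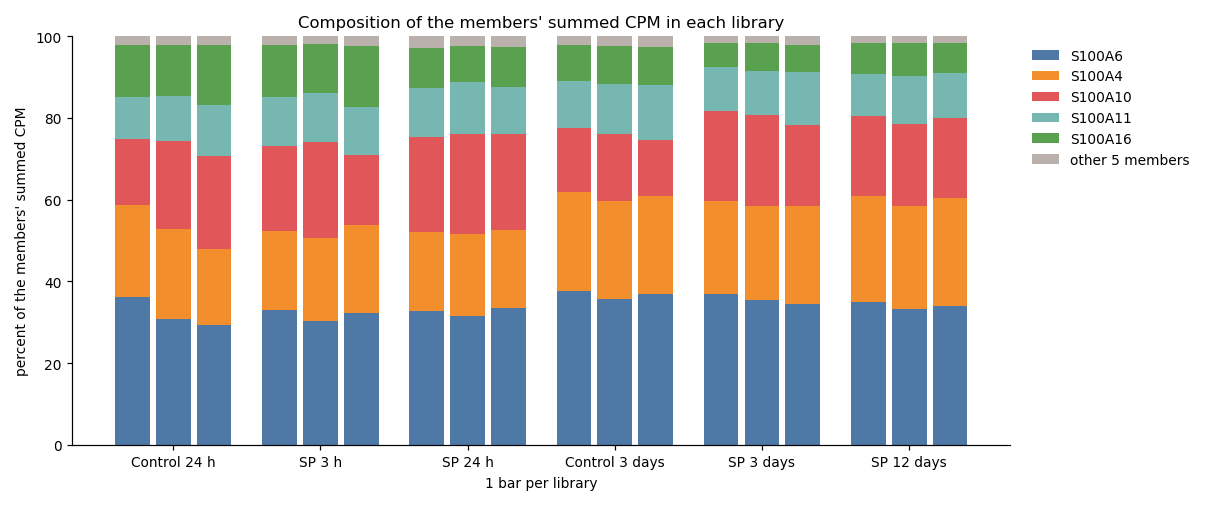
Stacked bars give, for each of the 18 libraries (x axis, grouped by condition), the percent of the summed CPM of the 10 members (y axis) contributed by each of the 5 most abundant members and by the other 5 together. S100A6 is the largest block in each bar, and the S100A10 block is wider in both long-exposure SP groups than in Control 3 days.

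Each table was tested as a whole with edgeR's quasi-likelihood test, and a gene passed at a Benjamini-Hochberg adjusted p under 0.05 over all tested genes (17377 genes in the table of 3 and 24 h, 17775 in the other). S100A9 fell under the expression filter in both tables, so 9 of the 10 members were tested. At 3 h, 1 member was higher (S100A14) and 0 were lower, beside 7.39% of all tested genes higher and 4.11% lower. At 24 h, 2 members were higher (S100A14 and S100P) and 1 lower (S100A16), beside 16.8% of genes higher and 12.0% lower. With 3 days of SP, 2 were higher (S100A10 and S100A14) and 2 lower (S100A16 and S100P), beside 25.2% of genes higher and 23.3% lower. With 12 days, 4 were higher (S100A2, S100A4, S100A10 and S100A14) and 1 lower (S100P), beside 26.4% higher and 23.4% lower. In each of these comparisons the members' share lay near the background, that of 12 days with its highest count included. S100A14 passed the filter only through its SP libraries, no control library holding more than 5 of its reads, and without it the counts of higher and lower members were 0 and 0 of 8 at 3 h, 1 and 1 at 24 h, 1 and 2 at 3 days and 3 and 1 at 12 days. The median log2 fold change over the 9 tested members was -0.16 at 3 h, -0.17 at 24 h, -0.05 at 3 days and 0.36 at 12 days, and that over all tested genes lay between -0.02 and 0.00 in these comparisons. Under the study's thresholds, an adjusted p under 0.0001 with a fold change of at least 2, edgeR called 0 members in every comparison. At the same thresholds DESeq2 called S100P at 24 h (log2 fold change 1.27, adjusted p = 1.12e-05), at 12 days (-2.07, adjusted p = 8.17e-05) and in SP 24 h against SP 3 h (1.52, adjusted p = 1.69e-07), and no other member. An unadjusted p under 0.05 was given by edgeR to 1 member at 3 h, 4 at 24 h, 4 at 3 days and 5 at 12 days. Over all tested genes it was given to 4367 of 17377 at 3 h and 7146 of 17377 at 24 h. At 3 days it was given to 9770 of 17775 and at 12 days to 9940 of 17775, so the members did not stand out. The study's thresholds were met in edgeR by 0.0% of all genes at 3 h, 0.685% at 24 h, 8.44% at 3 days and 9.11% at 12 days. Offsets for GC content and transcript length raised the 24 h count to 5, with S100A3 and S100A4 lower, and adding the replicate block to them raised it to 7, with S100A6 and S100A11 lower as well. The shares of all genes called under the offsets, or by DESeq2 at the study's thresholds, are not given here. Those counts of members therefore have no background beside them.

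**Figure D2:**
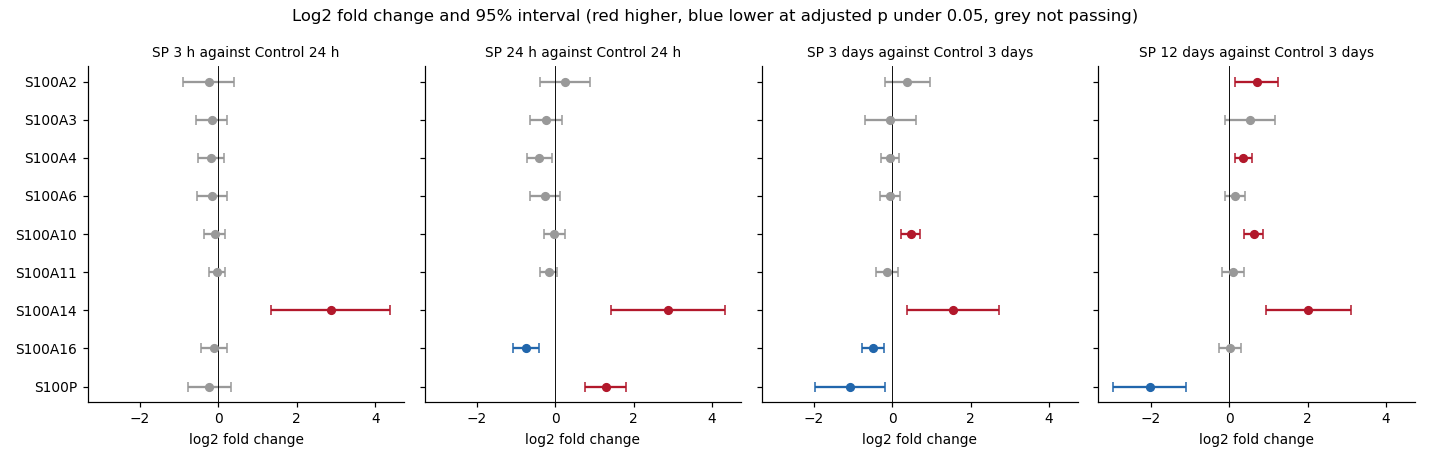
Points give the log2 fold change (x axis) of each of the 9 tested members (y axis) in the 4 comparisons with control, with 95% intervals from edgeR; red passed as higher, blue as lower, and grey did not pass at an adjusted p under 0.05. S100P lies right of 0 at 24 h and left of 0 at 3 and 12 days, and the interval of S100A14 is the widest in each panel, spanning 0.93 to 3.10 at 12 days.

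S100P is a placental S100 protein that binds ezrin and, once secreted, RAGE. In the table of 3 and 24 h its level was 3.92, 3.38 and 2.07 CPM in the Control 24 h libraries and 2.96, 2.69 and 2.28 in SP 3 h. In SP 24 h it was 8.54, 6.71 and 7.43 CPM. Every SP 24 h library therefore lay above every Control 24 h and SP 3 h library, whereas those of SP 3 h fell within the range of the control. S100P was 2.44-fold higher at 24 h (log2 fold change 1.29, SE 0.23, adjusted p = 0.0034) and did not pass at 3 h (log2 fold change -0.23, SE 0.25, adjusted p = 0.63). SP 24 h exceeded SP 3 h by 1.52 on the log2 scale (SE 0.24, adjusted p = 0.0028), a contrast in which 11.7% of genes were higher and 8.4% lower.

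In the table of 3 and 12 days the level of S100P was 23.0, 20.4 and 24.3 CPM in the untreated cells of Control 3 days. It was 9.63, 9.87 and 12.7 CPM in SP 3 days and 2.84, 3.24 and 9.97 in SP 12 days. All 6 SP libraries lay under the lowest control library, and SP 12 days replicate 3 reached the range of SP 3 days while the other two of its group did not. S100P was 2.1-fold lower at 3 days (log2 fold change -1.07, SE 0.38, adjusted p = 0.0496) and 4.08-fold lower at 12 days (-2.03, SE 0.40, adjusted p = 0.0036). The 3 day call was lost with RLE factors (adjusted p = 0.0508), without the filter (0.169), with DESeq2 (0.0678) and on leaving out any 1 of the Control 3 days libraries (adjusted p = 0.117, 0.0775 and 0.113 without replicates 1, 2 and 3) or SP 3 days libraries (0.134, 0.127 and 0.0719), with the log2 fold change between -1.21 and -1.01 in all leave-one-out fits. It held in the 3 of 9 leave-one-out edgeR fits that lacked an SP 12 days library, a group outside this comparison. Over these 9 fits the adjusted p ran from 8.86e-09 to 0.134. Of the 7 other alternatives 4 kept the call, with adjusted p from 1.53e-07 to 0.169 over all 7. Without SP 12 days replicate 3 the 12 day value was -2.90 (adjusted p = 8.89e-14). SP 12 days lay -0.96 from SP 3 days on the log2 scale and did not pass (SE 0.42, adjusted p = 0.22). Without replicate 3 that difference was -1.82 (adjusted p = 1.59e-08).

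The SP effect on S100P thus had opposite signs at 24 h and at 3 days. The difference of both effects, taken from a joint edgeR fit of all 18 libraries that was added after these signs had been seen, was 2.33 on the log2 scale (24 h minus 3 days, SE 0.48, adjusted p = 0.0089), and it passed for 6.28% of 18785 genes in either direction. S100P was the 1 member of 9 for which this difference passed, the next being S100A10 (-0.54, SE 0.18, adjusted p = 0.084). The untreated controls of the 2 tables themselves differed in S100P level, and table and time cannot be told apart.

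S100A14 is an epithelial S100 protein first described in carcinoma cells, and here it was near the limit of detection. Its reads numbered 2, 0 and 2 in the Control 24 h libraries, 9, 14 and 9 in SP 3 h and 6, 26 and 16 in SP 24 h. In the other table they numbered 4, 3 and 5 in Control 3 days, 10, 16 and 7 in SP 3 days and 11, 11 and 33 in SP 12 days. On the CPM scale no SP library overlapped with the control of its table. The summed reads, scaled for depth, were 7.73-fold those of the control at 3 h (32 against 4 reads, 95% counting interval 2.74 to 30.1) and 8.22-fold at 24 h (48 against 4 reads, 3.01 to 31.4). The corresponding ratios were 2.94 at 3 days (33 against 12 reads, 1.48 to 6.24) and 4.14 at 12 days (55 against 12 reads, 2.19 to 8.50), and these intervals cover counting error only. Adjusted p-values from edgeR's quasi-likelihood test were 0.024 at 3 h, 0.010 at 24 h, 0.030 at 3 days and 0.0039 at 12 days. In neither table did a control library reach the expression filter for S100A14, so it entered the test only through its SP libraries. Such selection favours genes that are high with SP, so these p-values and the lack of overlap are descriptive only. Calls at 24 h and 12 days held on leaving out any 1 library, which does not remove that selection. That at 3 h was lost with the replicate block (adjusted p = 0.061) and without Control 24 h replicate 2 (0.063) or 3 (0.0515) or SP 3 h replicate 1 (0.067) or 2 (0.077). That at 3 days was lost with DESeq2 (0.060) and without Control 3 days replicate 1 (0.093) or 2 (0.083), and without replicate 1 (0.0527) or 2 (0.15) of SP 3 days. Without SP 12 days replicate 3 the 12 day log2 fold change was 1.42 in place of 2.02, and its adjusted p 0.026.

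S100A16, a widely expressed member whose gene lies directly beside that of S100A14, moved the other way at 24 h and 3 days. In the second table it was measured at 349, 266 and 315 CPM in Control 24 h, 288, 247 and 319 in SP 3 h and 202, 157 and 196 in SP 24 h. SP 3 h overlapped with the control, and no SP 24 h library reached either group. At 24 h S100A16 was 1.68-fold lower (log2 fold change -0.74, SE 0.15, adjusted p = 0.0054), and with GC content and length offsets the value was -1.06. At 3 h it did not pass (-0.12, SE 0.15, adjusted p = 0.68). SP 24 h lay under SP 3 h by -0.62 on the log2 scale (SE 0.15, adjusted p = 0.017), a call lost without SP 3 h replicate 1 (adjusted p = 0.054) or 3 (0.0625) or SP 24 h replicate 2 (0.070).

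With longer exposure, S100A16 was measured at 149, 129 and 162 CPM in Control 3 days, 93.7, 112 and 108 in SP 3 days and 161, 170 and 117 in SP 12 days. SP 3 days lay wholly under the control, and SP 12 days overlapped with it. S100A16 was 1.40-fold lower at 3 days (log2 fold change -0.49, SE 0.13, adjusted p = 0.0070) and was not called at 12 days (0.03, 95% interval -0.25 to 0.30, adjusted p = 0.89). SP 12 days was higher than SP 3 days by 0.51 (SE 0.13, adjusted p = 0.029), in a contrast where 4.46% of genes were higher and 3.65% lower. Without SP 12 days replicate 3 that difference was 0.65 (adjusted p = 3.84e-06). The call was lost without any 1 of the SP 3 days libraries (adjusted p = 0.12, 0.0635 and 0.0995 without replicates 1, 2 and 3), without SP 12 days replicate 1 (0.13) or 2 (0.088), with the replicate block (0.062) and with only the 2 groups compared in the fit (0.060).

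S100A10, the annexin A2 ligand also called p11, was 270, 232 and 238 CPM in Control 3 days, 345, 368 and 314 in SP 3 days and 418, 418 and 307 in SP 12 days. All 6 SP libraries lay above all control libraries. It was 1.39-fold higher at 3 days (log2 fold change 0.47, SE 0.11, adjusted p = 0.0029) and 1.54-fold higher at 12 days (0.63, SE 0.11, adjusted p = 0.00030), and both calls held under every alternative that was run. In the other table its libraries overlapped, at 444 to 497 CPM in Control 24 h, 366 to 482 in SP 3 h and 431 to 475 in SP 24 h. The log2 fold change was -0.10 (SE 0.12, adjusted p = 0.67) at 3 h and -0.02 (95% interval -0.29 to 0.24, adjusted p = 0.89) at 24 h.

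ANXA2, the annexin that S100A10 holds in its complex, was higher in the same comparisons. Its mean level was 1716 CPM in Control 3 days, 2346 in SP 3 days and 2370 in SP 12 days, with log2 fold changes of 0.45 (SE 0.11, adjusted p = 0.0027) and 0.47 (SE 0.11, adjusted p = 0.0020). At 24 h ANXA2 did not pass (-0.30, SE 0.12, adjusted p = 0.090). AHNAK, a giant scaffold protein bound by the S100A10 and annexin A2 complex, was higher at 3 days (0.74, SE 0.11, adjusted p = 4.85e-05) and at 12 days (0.88, SE 0.11, adjusted p = 8.64e-06). At 24 h AHNAK was measured at 0.62 with an SE of 0.31 and did not pass (adjusted p = 0.17).

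S100A4, known as metastasin for its part in cell motility, was 413, 337 and 410 CPM in Control 3 days and 357, 384 and 381 in SP 3 days, which overlapped. In SP 12 days it was 549.002, 528 and 416 CPM, each above every control library. S100A4 was 1.29-fold higher at 12 days (log2 fold change 0.36, SE 0.11, adjusted p = 0.010), a call lost when Control 3 days replicate 2 (0.26, adjusted p = 0.070) was left out, and likewise SP 12 days replicate 1 (0.27, adjusted p = 0.0755), and the value without SP 12 days replicate 3 was 0.46 (adjusted p = 2.05e-05). At 3 days it did not pass (-0.05, SE 0.11, adjusted p = 0.74). SP 12 days exceeded SP 3 days by 0.41 (SE 0.11, adjusted p = 0.028), and leaving out any 1 SP 3 days library (adjusted p = 0.12, 0.092 and 0.10 for replicates 1, 2 and 3) or SP 12 days replicate 1 (0.17) or 2 (0.081) ended that call, while leaving out SP 12 days replicate 3 gave 0.51 (adjusted p = 2.37e-05). In the second table the S100A4 level was 617, 468 and 405 CPM in Control 24 h, 433, 417 and 459 in SP 3 h and 397, 349 and 379 in SP 24 h. All SP 24 h libraries lay under the control, the highest by a narrow margin, and the difference did not pass (-0.40, SE 0.15, adjusted p = 0.064). It passed as lower with DESeq2 (-0.43, adjusted p = 0.047), without the filter (-0.39, adjusted p = 0.032), with GC content and length offsets (-0.45, adjusted p = 0.031) and without Control 24 h replicate 3 (-0.54, adjusted p = 0.013).

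S100A3, a cysteine-rich protein best known from hair cuticle, is encoded within the span of S100A4. Its level was 12.5, 11 and 15.7 CPM in Control 3 days, 11.5, 13.2 and 13.4 in SP 3 days and 23.5, 23.0 and 10.5 in SP 12 days. In the last group replicates 1 and 2 lay above the control while replicate 3 lay under it. S100A3 did not pass at 12 days (log2 fold change 0.53, SE 0.28, adjusted p = 0.15), and without replicate 3 it did (0.81, adjusted p = 3.13e-06). In the second table it ranged from 35.7 to 48.6 CPM in Control 24 h, 32.4 to 42.3 in SP 3 h and 27.5 to 40.4 in SP 24 h, and neither comparison passed (-0.17 and -0.23, adjusted p = 0.62 and 0.34). SP 24 h was lower than the same-numbered Control 24 h library in 3 of 3 pairs, though pairing by number is not established. In edgeR S100A3 passed as lower with the replicate block and the GC content and length offsets (-0.56, adjusted p = 0.013).

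S100A2, a nuclear S100 protein of basal epithelia, was 3.11, 2.63 and 4.02 CPM in Control 3 days, 3.11, 3.84 and 5.74 in SP 3 days and 6.32, 6.14 and 3.59 in SP 12 days. Replicate 3 of SP 12 days lay within the control range and the other two above it. S100A2 passed as higher at 12 days (1.63-fold, log2 fold change 0.70, SE 0.26, adjusted p = 0.035). This call was lost with the replicate block (adjusted p = 0.063) and without Control 3 days replicate 1 (0.10) or 2 (0.14), replicate 2 of SP 3 days (0.0521) and replicate 1 (0.13) or 2 (0.11) of SP 12 days, and without SP 12 days replicate 3 the value was 0.92 (adjusted p = 0.00052). At 3 days (0.38, SE 0.27), 3 h (-0.25, SE 0.29) and 24 h (0.25, SE 0.29) it did not pass.

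S100A6 (calcyclin, which binds CACYBP) and S100A11 (calgizzarin, which binds annexin A1) are 2 of the abundant members and passed in none of the 6 comparisons with all libraries and no offsets. S100A6 ranged from 503 to 646 CPM in Control 3 days, 545 to 590 in SP 3 days and 535 to 744 in SP 12 days, and from 635 to 988 in Control 24 h, 618 to 733 in SP 3 h and 555 to 672 in SP 24 h. Its log2 fold changes against control were -0.16, -0.27, -0.06 and 0.14 in the short (3 and 24 h) and long (3 and 12 days) exposures (SE 0.12 to 0.17). Without SP 12 days replicate 3, S100A6 passed as higher at 12 days (0.26, adjusted p = 0.013). S100A11 ranged from 175 to 230 CPM in Control 3 days, 166 to 203 in SP 3 days, 172 to 247 in SP 12 days, 235 to 277 in Control 24 h, 245 to 266 in SP 3 h and 224 to 242 in SP 24 h. Its 95% intervals were -0.25 to 0.18 at 3 h, -0.39 to 0.04 at 24 h, -0.41 to 0.16 at 3 days and -0.19 to 0.37 at 12 days on the log2 scale. By library number, a pairing that is not established, S100A11 was lower in SP 24 h in 3 of 3 pairs and S100A6 in 2 of 3. With the block and offsets together, S100A11 passed as lower at 24 h in edgeR (-0.26, adjusted p = 0.029). S100A6 did so too (-0.39, adjusted p = 0.041).

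S100A9, the calprotectin subunit of myeloid cells, was read once in Control 3 days replicate 1 and once in SP 3 h replicate 2, and had 0 reads in the other libraries. Its level was therefore not detectable at this depth and no fold change is given. Its calprotectin partner S100A8 had reads in 1 library, SP 3 h replicate 2.

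Between SP 12 days and SP 3 days, 2 members passed as higher (S100A4 and S100A16) and 0 as lower in edgeR. Of all tested genes, 4.46% were higher and 3.65% lower. An unadjusted p under 0.05 was given to 2 members and to 4140 of 17775 genes. Without SP 12 days replicate 3 the count of members passing was 8 of 9, 7 of them higher (S100A2, S100A3, S100A4, S100A6, S100A10, S100A11 and S100A16) and S100P lower. It was 0 without any other library of either group. Against Control 3 days the count rose from 5 to 7 on leaving out replicate 3 and stood at 3 when either SP 12 days replicate 1 or Control 3 days replicate 2 was left out. The shares of all genes called in these leave-one-out fits are not given here, so the counts cannot be read against a background.

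Of the other 11 annotated S100 genes, 3 passed the expression filter and 4 had 0 reads in all 18 libraries. S100A13, a member implicated in the release of signal proteins without a leader sequence, was higher at 3 days (log2 fold change 0.33, SE 0.09, adjusted p = 0.0086) and 12 days (0.45, SE 0.09, adjusted p = 0.00079), with means of 21.7, 27.2 and 29.7 CPM in Control 3 days, SP 3 days and SP 12 days. At 3 and 24 h it did not pass (-0.11 and 0.02). S100A1, best known from heart and skeletal muscle, was lower at 12 days (-0.95, SE 0.32, adjusted p = 0.023; 51 against 91 summed reads) and higher in SP 24 h than in SP 3 h (1.38, SE 0.40, adjusted p = 0.038). S100A1 and S100A13 share 235 bp of exon on opposite strands, and the strandedness of the counting is not given in the sources used here, so reads from that stretch cannot be told apart. S100A5, described in olfactory neurons, was higher at 24 h (1.28, SE 0.40, adjusted p = 0.040; 85 against 23 summed reads) and 3 days (1.07, SE 0.35, adjusted p = 0.019; 58 against 30 summed reads) and did not pass at 12 days (0.15, adjusted p = 0.76). Of the 3 control libraries in each table, 2 reached the filter for S100A5, so it entered the test only with its SP libraries counted, and its p-values are descriptive only.

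The 12 intracellular partners described here, from a list of proteins bound by S100 members, were all tested. At 3 h 0 passed, at 24 h 2 were higher and 2 lower, at 3 days 6 were higher and 2 lower, and at 12 days 7 were higher and 1 lower; their median log2 fold changes were 0.10, -0.07, 0.34 and 0.49. Over all tested genes the shares called higher and lower were 16.8% and 12.0% at 24 h, 25.2% and 23.3% at 3 days and 26.4% and 23.4% at 12 days, and the partner counts are to be read against these. The S100A4 partners MYH9, the heavy chain of non-muscle myosin IIA, and PPFIBP1, the adhesion scaffold liprin-β1, both rose at 3 days (1.10 and 1.09, adjusted p = 3.79e-07 and 2.93e-08) and 12 days (0.97 and 1.22, adjusted p = 1.33e-06 and 7.42e-09), while PPFIBP1 alone passed at 24 h (0.74, adjusted p = 0.0030). ANXA6, a membrane-binding annexin, rose at 24 h, 3 days and 12 days (1.58, 1.52 and 1.35, adjusted p = 3.38e-05, 1.42e-08 and 4.49e-08). ANXA1, the annexin bound by S100A11, rose at 3 and 12 days (0.76 and 0.69, adjusted p = 9.89e-06 and 2.53e-05) and not at 24 h (0.28, adjusted p = 0.48). Of the S100A6 partners, CACYBP and SUGT1 fell at 24 h (-0.56 and -0.64, adjusted p = 0.032 and 0.048), SUGT1 also at 3 days (-0.36, adjusted p = 0.033), and neither passed at 12 days. S100PBP, a nuclear S100P-binding protein, fell at 3 and 12 days (-0.38 and -0.31, adjusted p = 0.0016 and 0.0061).

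Of 5 receptors, 0 passed at 3 h, 2 were higher at 24 h, 2 higher and 1 lower at 3 days, and 3 higher and 2 lower at 12 days, beside the same shares of all genes. MCAM, an adhesion molecule reported to bind extracellular S100A8 and S100A9, had the highest fold, from a mean of 12.8 CPM in Control 3 days to 98.7 at 3 days and 82.0 at 12 days of SP (log2 fold changes 2.94 and 2.68, adjusted p = 2.30e-12 and 5.96e-12) and from 20.9 in Control 24 h to 79.2 in SP 24 h (1.92, adjusted p = 0.00013). BSG (basigin, a receptor for S100A9) was higher at 24 h, 3 days and 12 days (0.80, 0.76 and 0.40, adjusted p = 0.00069, 1.89e-06 and 0.00088). TLR4, an innate immune receptor, was lower at 3 days (-1.12, adjusted p = 0.00093) and higher at 12 days (0.52, adjusted p = 0.039) from a level of 2.94 CPM in Control 3 days. AGER, which encodes RAGE, was lower at 12 days (-0.50, SE 0.18, adjusted p = 0.027) and did not pass at the other times. The ligands S100A8 and S100A9 themselves were at most 2 reads in any library.

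**Figure D3:**
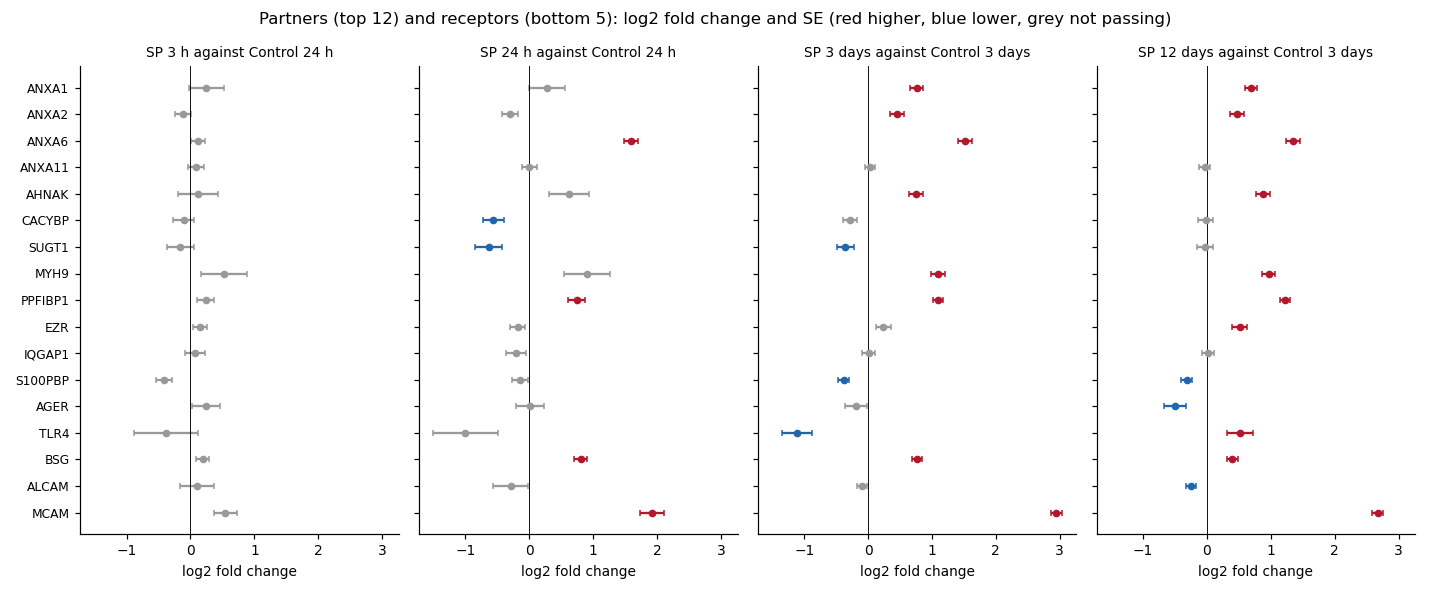
Points give the log2 fold change (x axis) with its SE for 12 intracellular partners and 5 receptors of S100 proteins (y axis) in the 4 comparisons with control; red passed as higher, blue as lower and grey did not pass. MCAM reaches 2.94 at 3 days, and no gene of the list passed at 3 h.

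The expressed genes that lie among the S100 genes on chromosome 1, with 5 flanking genes on each side, numbered 17, of which 16 were tested in the table of 3 and 24 h. At 3 h 3 were higher and 1 lower, at 24 h 5 higher and 1 lower, at 3 days 6 higher and 2 lower, and at 12 days 8 higher and 3 lower. Of all tested genes 7.39% were higher and 4.11% lower at 3 h, 16.8% and 12.0% at 24 h, 25.2% and 23.3% at 3 days and 26.4% and 23.4% at 12 days, so the neighbours' count at 3 days lay near the background. Fewer than 3 control libraries of TCHH and ENSG00000229021 reached the expression filter in either table, so these genes entered the test through their SP libraries. Their p-values are therefore descriptive only. The counts of higher neighbours include TCHH in all 4 comparisons and ENSG00000229021 in all but that of 3 h. No count without them is given here, so these counts are not read as an excess over the background. Inside the cluster, TCHH (trichohyalin, an S100-fused structural protein of hair follicles) was higher in all 4 comparisons, with log2 fold changes of 1.45, 1.43, 2.56 and 3.32 in order of exposure (adjusted p = 0.024, 0.012, 1.68e-06 and 4.73e-08) from 0.639 CPM in Control 3 days to 6.42 in SP 12 days. FLG (filaggrin, an S100-fused protein of the skin barrier) was higher at 24 h (0.84, adjusted p = 0.022) and 12 days (1.37, adjusted p = 3.50e-05), and its antisense transcript FLG-AS1 at 3 and 12 days (0.62 and 1.43, adjusted p = 0.016 and 1.00e-05); reads of such antisense pairs cannot be told apart without strand. Of the long non-coding genes, ENSG00000229021 was higher at 24 h, 3 days and 12 days (1.66, 2.5 and 2.51, adjusted p = 0.026, 0.00093 and 0.00076) at a level of 1.02 CPM or less and with 1 to 3 reads in each Control 3 days library, and ENSG00000285867 was higher at 3 h, 3 days and 12 days (0.82, 0.61 and 1.02, adjusted p = 0.024, 0.035 and 0.00098). On the right flank NPR1, the natriuretic peptide receptor, was higher at 24 h, 3 days and 12 days (1.5, 1.85 and 1.17, adjusted p = 0.0028, 3.07e-08 and 4.11e-06). ENSG00000238279, the antisense gene that overlaps S100A6, did not pass at 24 h (0.43, adjusted p = 0.26) or 12 days (-0.21, adjusted p = 0.65).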

How the data were processed

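Libraries of A549 cells (18, 3 per group) were made by the authors with the NEBNext Ultra kit from total RNA, aligned to GRCh38 with STAR 2.7.9a and counted per Ensembl gene with featureCounts. The authors deposited raw counts, without normalization, in 2 tables. Strandedness and the treatment of reads mapping to several places are not given in the sources used here.

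Counts were analysed with edgeR 4.0.16 in R 4.3.3: filterByExpr (minimum count 10), TMM factors (0.957 to 1.037) and 1 robust quasi-likelihood fit of the 9 libraries of each table, with Benjamini-Hochberg adjustment over all tested genes. Alternatives were DESeq2 1.42.0, RLE factors, no filter, only the 2 groups compared, a replicate block, GC content and length offsets, and leaving out each library. The fitting was tested on simulated data. Counts of 14187401 to 43765330 per library, with a common coefficient of variation of 0.0996 (3 and 12 days) and 0.199 (3 and 24 h), set the precision. Levels per length use the summed exon length of GENCODE. Intervals are 95%.

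The members and the lists of partners, receptors and neighbours were chosen with earlier results of these data known. One listed partner is not reported here. Named are all members, other S100 genes that pass the filter, ANXA1, ANXA2 and AHNAK, and listed genes that passed with a fold change of at least 2 in a comparison with control; other list members named (BSG, CACYBP, SUGT1, S100PBP, AGER, ENSG00000238279) were chosen after their values were seen, apart from the last, which overlaps a member. Same-numbered libraries of SP 24 h and Control 24 h correlated in their deviations at 0.499, 0.170 and 0.504, and unlike-numbered ones at -0.546 to 0.175. For SP 3 h and Control 24 h the values were -0.086, -0.028 and -0.592, and -0.573 to 0.576 for unlike numbers. Pairing by number, taken from the labels, is therefore not established here, and none was taken for the other table. The tests printed are without the block, which changed no call at 24 h unless joined to the offsets.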

Additional observations from a re-analysis of the deposited data

Results flagged for a closer look

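S100P differed between SP groups of different times. SP 24 h exceeded SP 3 h by 1.52 on the log2 scale (adjusted p = 0.0028, edgeR), with every SP 24 h library above every SP 3 h library. Where SP groups are compared with one another, here and below, SP and time in culture cannot be told apart. The effect at 24 h minus that at 3 days was 2.33 (adjusted p = 0.0089) in the joint edgeR fit. That fit was added after the signs had been seen, and table and time cannot be told apart in it. The S100P call at 3 days was itself lost under several alternatives, as given with that gene. S100A16 was lower in SP 24 h than in SP 3 h, at -0.62 (adjusted p = 0.017), and higher in SP 12 days than in SP 3 days by 0.51 (adjusted p = 0.029). S100A4 was higher in SP 12 days than in SP 3 days by 0.41 (adjusted p = 0.028). The calls between SP 12 days and SP 3 days depended on single libraries, as given with those genes.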

How the results depend on the processing

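Of 861 log2 fold changes of members computed under the alternatives, 770 kept their direction and their side of the threshold, and of 102 counts of called members 70 stayed within 1.5 times the reported count. The number of members called was 0 in all 6 comparisons at the study's thresholds with edgeR, while DESeq2 called S100P in 3 of them. At 3 h it was 0 with the replicate block and with only the 2 groups compared, where S100A14 could not be tested, and 0 to 1 on leaving out single libraries. At 24 h it was 3 with the replicate block, 2 with only the 2 groups compared, where S100A14 could not be tested, 4 with DESeq2 and without the filter, S100A4 being added, 5 with GC content and length offsets and 7 with both. At 3 days it was 2 with DESeq2 and 2 to 4 on leaving out libraries, and with only the 2 groups compared S100A14 could not be tested. At 12 days it was 3 to 7 on leaving out libraries. Between SP 24 h and SP 3 h it was 1 to 2, and between SP 12 days and SP 3 days 0 to 8, with 1 under the replicate block and 1 with only the 2 groups. The replicate block changed no call at 24 h, and its other lost calls stand with S100A14, S100A2 and S100A16. Shares of all genes called under the alternatives are not given here.

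Values near 0 that changed sign, none of them called, were these. With GC content and length offsets, without and with the replicate block, S100A10 was 0.039 and 0.037 at 24 h, S100A4 0.049 and 0.049 at 3 days, and S100A14 -0.10 and -0.10 for SP 24 h against SP 3 h (-0.026 with DESeq2). S100A16 at 12 days was -0.0076 with both. On leaving out libraries, S100A6 ranged from -0.28 to 0.054 and S100A10 from -0.18 to 0.0090 at 3 h, S100A10 from -0.087 to 0.020 at 24 h, S100A3 from -0.16 to 0.10 at 3 days, and S100A11 from -0.045 to 0.21 and S100A16 from -0.093 to 0.16 at 12 days. For SP 24 h against SP 3 h the ranges were -0.17 to 0.10 (S100A3), -0.041 to 0.15 (S100A10) and -0.23 to 0.26 (S100A14), and for SP 12 days against SP 3 days -0.13 to 0.83 (S100A14). The cause of these changes was not tested. Depth limits S100A14 and S100A9, and 3 libraries per group limit the rest.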
